A study of Mus musculus with 12 samples.

Results

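Homing and egress receptors are the surface receptors that bring lymphocytes into lymph nodes, hold them there and let them leave again. The 7 genes described here are S1pr1, S1pr4, Ccr7, Cxcr4, Cxcr3, Ccr9 and Cd69, out of 18193 genes with a probe set of their own on the array. They were chosen by name, with earlier results of these data known. They had 11 of the 45037 probe sets tested, each mapping to exactly 1 of the symbols. Ccr9 had 5 of them and the other 6 genes 1 each. Ccr9 was represented by the probe set with the highest mean over the 12 arrays and the other 4 served as a check.

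Naive T cells enter a lymph node guided by CCR7, the receptor of the chemokines CCL19 and CCL21, and scan it for their antigen. They leave along a gradient of the lipid sphingosine 1-phosphate (S1P), which S1PR1 senses. Upon antigen encounter, the early activation protein CD69 binds S1PR1 and draws it off the surface, while the transcription factor KLF2, which keeps S1pr1 switched on in resting cells, is lost. CXCR4, CXCR3 and CCR9 answer to other chemokines and steer cells towards CXCL12-rich niches, inflamed tissue and the small intestine.

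Lymph node cells came from P14-TCR mice, whose transgenic T cell receptor recognises the viral peptide gp33-41 on an MHC class I molecule. Suspensions of 3 PKD2 null and 3 wild-type (WT) P14-TCR mice were split, and RNA was taken after 4 h of culture with 62.5 ng/ml peptide or without it. This gave 4 groups of 3 arrays: PKD2 null cells with peptide, WT cells with peptide, unstimulated PKD2 null cells and unstimulated WT cells. All groups carry the P14 receptor, all were cultured for 4 h, and each mouse is in both conditions. The labels used here give neither the age or sex of the mice nor the cells in which PKD2 is deleted, and the cultures were whole lymph node suspensions rather than sorted T cells. Values are log2 signals, on which a difference of 1 is a 2-fold change, and the array medians lay between 4.66 and 4.72.

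Prkd2, which encodes protein kinase D2 (PKD2), a kinase activated downstream of the antigen receptor, had a mean signal of 5.477 ± 0.12 in null cells with peptide against 8.328 ± 0.178 in WT cells with peptide, and of 5.999 ± 0.291 in unstimulated null cells against 10.17 ± 0.172 in unstimulated WT cells (SD, n = 3 mice each). Markers of CD8 T cells were high, with Cd8a at the percentile 95.7 and Cd8b1 at 98.4 of all probe sets, as was the general T cell marker Cd3d at 99.4. Markers of other cells were high too. The 9 B cell markers measured included Ighm at the percentile 99.1 and Ms4a1 at 96.9. Their mean level was higher in null than in WT suspensions, from 8.799 to 9.506 in null cells with peptide against 8.165 to 8.4 in WT cells with peptide, and from 9.487 to 10.18 in unstimulated null cells against 8.986 to 9.065 in unstimulated WT cells. Null mouse 2 stood apart, with the highest B cell level of the null mice and, in unstimulated cells, a CD8 marker level of 10.71 against 11.41 and 11.42 in the other null mice. In such mixed samples, fewer cells of a type and less RNA per cell cannot be told apart.

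Upstream sequence was held for 4 of the 7 genes in the RefSeq promoter table (build GRCm38.p6), namely S1pr4, Cxcr4, Cxcr3 and Ccr9. The 250 bases before the start site are shown for S1pr4 and Cxcr4 because both genes fell with peptide in both genotypes. Capitals mark every match, on either strand, to 5 short motifs that were searched: the KLF motif CACCC, the FOXO motif TGTTTAC, the AP-1 motif TGANTCA, the NFAT motif GGAAA and the T-box motif TCACACC.
S1pr4, chr10:81500138-81500387, minus strand: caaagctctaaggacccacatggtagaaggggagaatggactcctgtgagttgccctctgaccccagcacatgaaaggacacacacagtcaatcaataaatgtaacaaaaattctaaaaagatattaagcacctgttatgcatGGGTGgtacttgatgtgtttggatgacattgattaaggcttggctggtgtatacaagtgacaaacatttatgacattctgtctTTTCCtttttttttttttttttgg
Cxcr4, chr1:128592300-128592549, minus strand: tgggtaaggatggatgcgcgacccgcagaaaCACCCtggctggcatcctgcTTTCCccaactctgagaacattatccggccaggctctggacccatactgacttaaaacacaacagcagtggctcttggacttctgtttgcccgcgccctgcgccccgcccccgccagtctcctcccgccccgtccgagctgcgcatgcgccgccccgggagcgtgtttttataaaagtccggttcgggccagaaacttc

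In the S1pr4 window the KLF match began 107 bases and the NFAT match 24 bases before the start site, both on the strand opposite to the printed one. In the Cxcr4 window the KLF match began 219 bases and the NFAT match, on the opposite strand, 199 bases before it. Ccr9 had 1 KLF match 73 bases before its start site, and the Cxcr3 window had no match to any of the 5 motifs. None of the motifs overlaps another. Such matches are common, since 52% of the 32851 promoter windows of this length held the KLF motif and 55.6% the NFAT motif, against 6.75% for AP-1, 3.33% for T-box and 3.17% for FOXO. A match is a description of the letters, not a binding site.

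The first question was how antigen changed the receptor genes within 4 h, in mice with and without PKD2. In null cells with peptide, 1 of the 7 genes rose (Cd69), 4 fell (S1pr1, S1pr4, Ccr7 and Cxcr4) and 2 were not called. In WT cells with peptide, 2 rose (Cd69 and Cxcr3), S1pr1, S1pr4, Ccr7 and Cxcr4 fell and Ccr9 was not called. A gene counted as called at an adjusted p under 0.05 (limma, Benjamini-Hochberg over all 45037 probe sets). Peptide moved a large part of the array: 24.8% of probe sets were called in null cells, 11% higher and 13.8% lower, and 29% in WT cells, 12.8% higher and 16.2% lower. By gene, 2268 rose and 3456 fell of 18193 in null cells, and 2754 rose and 3704 fell in WT cells. The median change of the 7 genes was -1.06 in null and -1.21 in WT cells, while the median over all genes was -0.02 in null and 0.01 in WT cells. The 3 peptide and the 3 unstimulated values did not overlap for 5 of the 7 genes in null cells and for 6 in WT cells, beside 35.3% of all probe sets in null and 39.9% in WT cells.

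**Figure D1:**
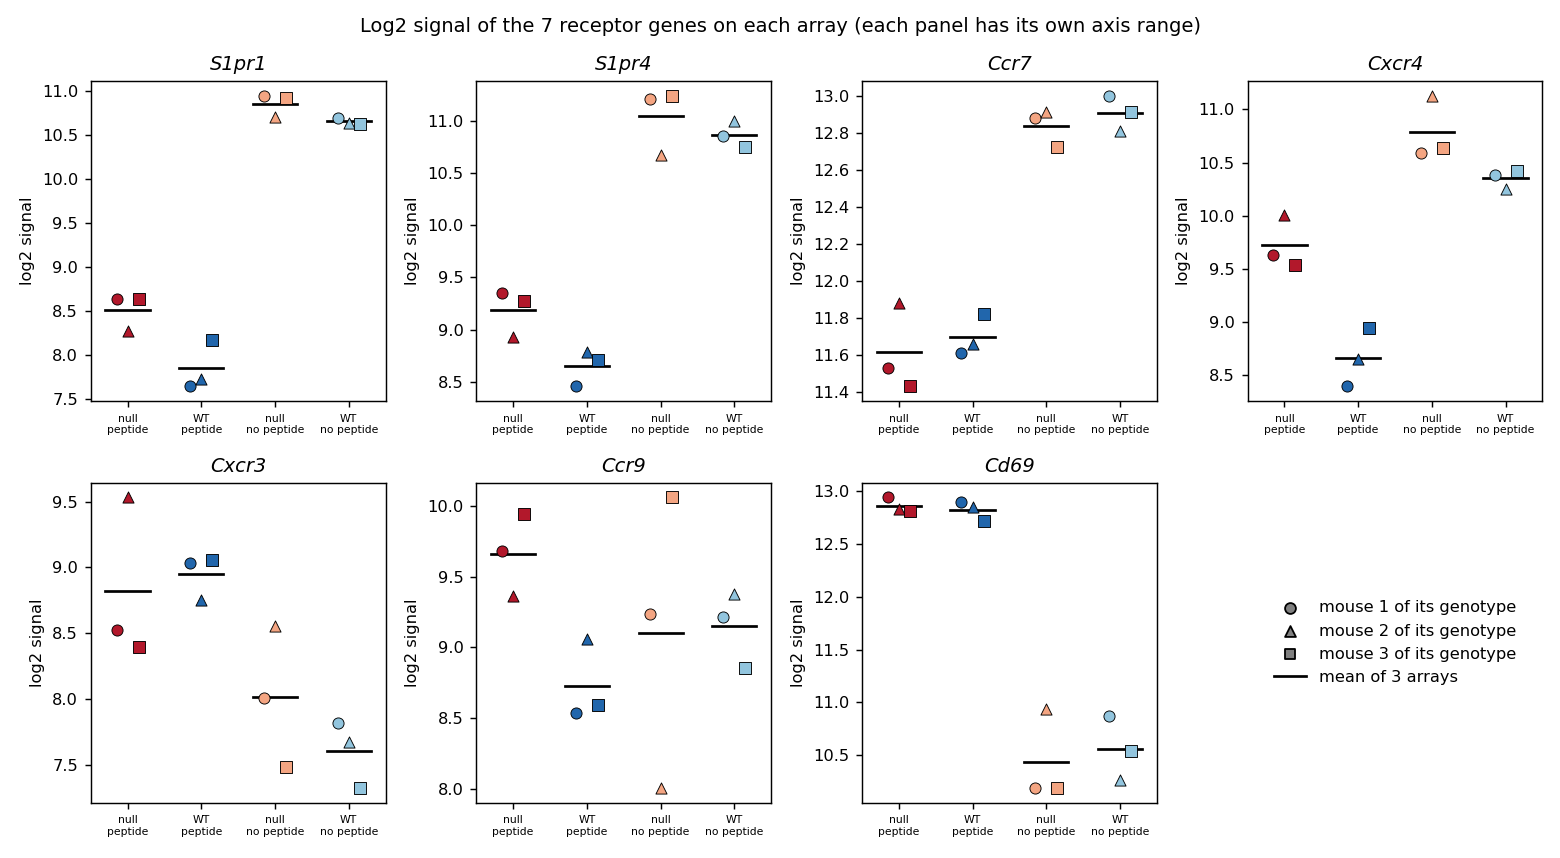
Log2 signal (vertical axis, with its own range in each panel) of the 7 receptor genes on each of the 12 arrays, in null and WT cells with peptide and then without it. Symbols mark the mouse and bars the mean of 3 arrays. S1pr1, S1pr4, Ccr7 and Cxcr4 lie lower and Cd69 higher with peptide in both genotypes, and null mouse 2 (triangles) stands away from the other null mice for Cxcr3 and for unstimulated Ccr9.

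Among the S1P receptors, S1pr1, the egress receptor itself (probe set 1423571_at), had 8.642, 8.272 and 8.644 in null cells with peptide, 7.649, 7.735 and 8.179 in WT cells with peptide, 10.95, 10.71 and 10.92 in unstimulated null cells, and 10.7, 10.64 and 10.63 in unstimulated WT cells. Each peptide array was lower than each unstimulated array, and in both conditions each null array was higher than each WT array. With peptide the gene fell 5.07-fold in null cells (log2 change -2.34, SE 0.142, adjusted p = 1.7e-07) and 6.99-fold in WT cells (-2.81, SE 0.142, adjusted p = 2.1e-08). Ordered by the size of the fall, S1pr1 ranked 12 among all genes in null cells and 8 in WT cells. The change within a mouse was -2.44 to -2.27 in null mice and -3.05 to -2.45 in WT mice.

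S1pr4, a further S1P receptor that is largely confined to blood and lymphoid cells (1451024_at), had 9.352, 8.933 and 9.279 in null cells with peptide, 8.458, 8.788 and 8.714 in WT cells with peptide, 11.21, 10.67 and 11.24 in unstimulated null cells, and 10.85, 11.0 and 10.75 in unstimulated WT cells. Peptide and unstimulated values were again apart, and null mouse 2 was the lowest null mouse in both conditions. The gene fell 3.6-fold in null cells (-1.85, SE 0.161, adjusted p = 3.1e-06) and 4.64-fold in WT cells (-2.21, SE 0.161, adjusted p = 4.2e-07). It ranked 52 among all genes that moved down in null cells and 43 in WT cells.

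The entry receptor Ccr7 (1423466_at) fell by nearly the same amount in both genotypes. Its signals were 11.53, 11.88 and 11.43 in null cells with peptide, 11.61, 11.66 and 11.82 in WT cells with peptide, 12.88, 12.91 and 12.72 in unstimulated null cells, and 13.0, 12.81 and 12.91 in unstimulated WT cells. Null and WT values overlapped in each condition, while peptide and unstimulated values did not. The fall was 2.33-fold in null cells (-1.22, SE 0.117, adjusted p = 6.6e-06) and 2.31-fold in WT cells (-1.21, SE 0.117, adjusted p = 4.5e-06), and it ranked 390 in null and 669 in WT cells.

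Cxcr4, the receptor of CXCL12 (1448710_at), had 9.632, 10.01 and 9.537 in null cells with peptide, 8.393, 8.65 and 8.945 in WT cells with peptide, 10.59, 11.13 and 10.64 in unstimulated null cells, and 10.38, 10.25 and 10.42 in unstimulated WT cells. In both conditions each null array was above each WT array, and null mouse 2 was the highest. With peptide the gene fell 2.08-fold in null cells (-1.06, SE 0.174, adjusted p = 0.00052) and 3.22-fold in WT cells (-1.69, SE 0.174, adjusted p = 7.8e-06). The change within a mouse was -1.12 to -0.95 in null mice and -1.99 to -1.48 in WT mice.

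Cxcr3, the receptor of the interferon-induced chemokines CXCL9, CXCL10 and CXCL11 (1449925_at), moved the other way. It had 8.522, 9.533 and 8.398 in null cells with peptide, 9.03, 8.751 and 9.059 in WT cells with peptide, 8.009, 8.556 and 7.485 in unstimulated null cells, and 7.821, 7.671 and 7.323 in unstimulated WT cells. The WT values did not overlap between conditions, whereas null mouse 2 without peptide lay above null mice 1 and 3 with it. In WT cells Cxcr3 rose 2.53-fold (1.34, SE 0.297, adjusted p = 0.0036), a call that was lost without WT mouse 3 (1.14, adjusted p = 0.054). In null cells the change was 0.80 (SE 0.297, 95% interval 0.15 to 1.45) and was not called (adjusted p = 0.072). The change was positive in each null mouse, at 0.51, 0.98 and 0.91, and with the mouse as a block it was called (adjusted p = 0.0015), as it was without null mouse 2 (0.71, adjusted p = 0.023).

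Ccr9, the receptor of the gut chemokine CCL25, gave no call with peptide in either genotype. Its main probe set 1427419_x_at, of a class that can bind more than 1 transcript, had 9.681, 9.361 and 9.945 in null cells with peptide, 8.534, 9.059 and 8.593 in WT cells with peptide, 9.237, 8.005 and 10.06 in unstimulated null cells, and 9.217, 9.373 and 8.854 in unstimulated WT cells. The 3 unstimulated null mice had an SD of 1.03 against 0.266 in the unstimulated WT mice, and null mouse 2 was the lowest. The change with peptide was 0.56 in null cells (95% interval -0.27 to 1.4, adjusted p = 0.37) and -0.42 in WT cells (-1.25 to 0.41, adjusted p = 0.5). The probe sets 1421920_a_at and 1421919_a_at changed by 0.72 and 0.37 in null cells and by -0.38 and -0.55 in WT cells, none of them called. The remaining 2, 1436065_at and 1442758_at, had group means of 3.799 to 4.116, below the array medians.

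Cd69, whose product antagonises S1PR1 at the surface (1428735_at), had 12.94, 12.83 and 12.81 in null cells with peptide, 12.9, 12.85 and 12.72 in WT cells with peptide, 10.19, 10.94 and 10.19 in unstimulated null cells, and 10.87, 10.27 and 10.54 in unstimulated WT cells. The 6 peptide arrays lay between 12.72 and 12.94, above every unstimulated array, and the unstimulated arrays were more spread. The gene rose 5.34-fold in null cells (2.42, SE 0.191, adjusted p = 1.4e-06) and 4.8-fold in WT cells (2.26, SE 0.191, adjusted p = 1.4e-06). Among all genes that moved up it ranked 87 in null and 190 in WT cells.

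**Figure D2:**
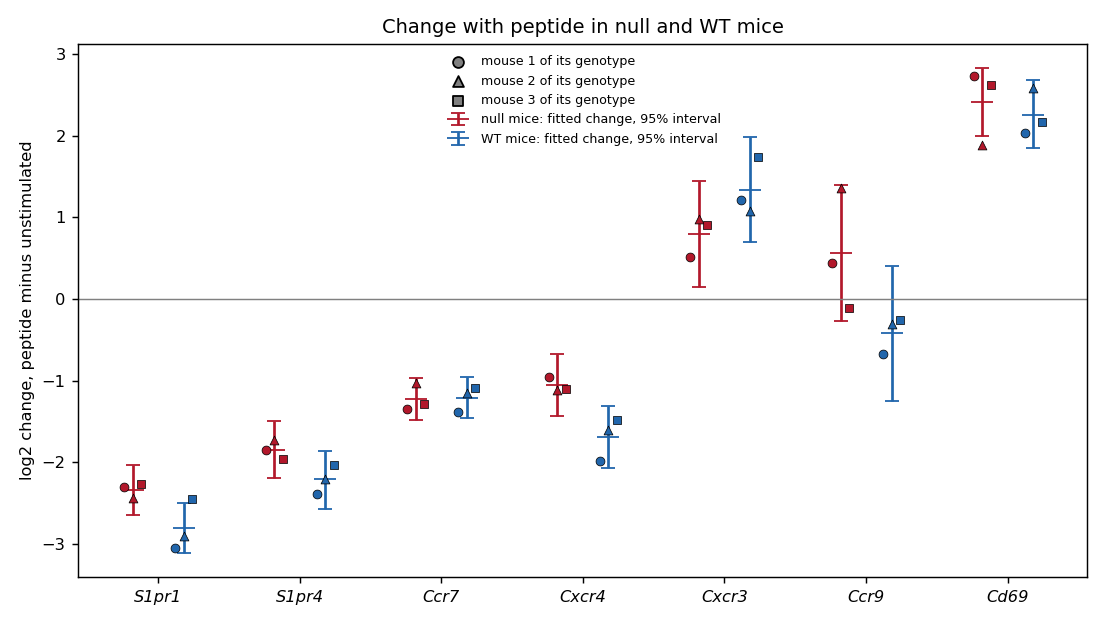
Log2 change with peptide (vertical axis, peptide minus unstimulated) of each receptor gene in null (red, left) and WT mice (blue, right). Symbols are single mice, crossbars the fitted change and whiskers its 95% interval; the S1pr1 change is -2.34 in null and -2.81 in WT mice, and the intervals of Ccr9 include 0 in both genotypes.

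The 4 genes that fell lay lower on each peptide array than on each unstimulated array of the genotype, and fell by different amounts. The distances below use values that were centred but not scaled, so they also reflect the size of a change. After centring each gene on its own mean, S1pr1 and S1pr4 were the closest members, at a root mean square distance of 0.31 log2 units over the 12 arrays, against 0.766 between Ccr7 and S1pr1 and 0.676 between Cxcr4 and S1pr1. Cd69 was 2.49 from S1pr1. These distances are descriptions over arrays that share the same 6 mice.

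Among the 18186 other genes, S1pr1 was followed most closely by Tsc22d3 (distance 0.21) and Pik3ip1 (0.224), which encode a glucocorticoid-induced leucine zipper protein and an inhibitor of PI3 kinase. Pik3ip1 changed by -2.57 in null and -2.87 in WT cells. S1pr4 was matched by Rasgrp2, a Rap1 activator (0.0774), and Tbc1d10c (0.107), and Rasgrp2 changed by -1.85 in null and -2.21 in WT cells, the same values as S1pr4. All genes named here were picked for closeness on these arrays, so their like changes are no separate result. Nearest to Ccr7 were Sertad3 (0.0714) and Cd47 (0.0891), the signal that protects cells from uptake by macrophages. The genes closest to Cxcr4 were Ssh1, a cofilin phosphatase (0.151), and Cerk, which encodes ceramide kinase (0.16). Cd69 was nearest to Nfkbid (0.149), an inhibitor-like regulator of NF-kappa B, and Slc5a3 (0.19), a myo-inositol transporter.

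The genotype comparisons asked whether PKD2 loss changed the receptor genes. In unstimulated cells none of the 7 genes was called in limma, with a smallest adjusted p of 0.49 and 1 gene at an unadjusted p under 0.05. This stood beside 4014 of all 45037 probe sets at an unadjusted p under 0.05. Of all probe sets 0.0377% were called (17, or 44 with the mouse as a random block). Null and WT values did not overlap for 2 of the 7 genes, S1pr1 and Cxcr4, beside 13.8% of all probe sets. In both the null values were the higher ones, beside 7.39%. Cxcr4 averaged 10.78 ± 0.302 in null and 10.35 ± 0.0913 in WT cells (SD, n = 3 mice each), a difference of 0.44 (95% interval 0.06 to 0.81, adjusted p = 0.49 in limma). The S1pr1 difference was 0.20 (-0.11 to 0.51, adjusted p = 0.74). For Ccr7 the interval of the difference ran from -0.33 to 0.18, for S1pr4 from -0.18 to 0.52 and for Cd69 from -0.53 to 0.3, whereas it was wider for Cxcr3 (-0.23 to 1.06) and Ccr9 (-0.88 to 0.79).

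With peptide, Cxcr4 and S1pr1 were higher in null than in WT cells and the other 5 genes were not called. These 2 calls in 7 genes stood beside 1.18% of all probe sets called in this comparison, and 0.799% called higher. Cxcr4 averaged 9.727 ± 0.252 in null and 8.663 ± 0.276 in WT cells (SD, n = 3 mice each), 2.09-fold higher (1.06, SE 0.174, limma adjusted p = 0.016), and it ranked 37 among all genes by the size of a higher signal. S1pr1 averaged 8.519 ± 0.214 in null and 7.854 ± 0.284 in WT cells, 1.59-fold higher (0.67, SE 0.142, limma adjusted p = 0.046). The Cxcr4 call was lost when WT mouse 1 (adjusted p = 0.055), WT mouse 2 (0.086) or null mouse 1 (0.089) was left out. The S1pr1 call was lost without WT mouse 1 (0.13), WT mouse 2 (0.22), null mouse 1 (0.24) or null mouse 3 (0.19), and after quantile normalization (0.058). With the arrays of this comparison alone neither was called (0.072 for Cxcr4 and 0.16 for S1pr1). Over the 12 alternatives the adjusted p ranged from 0.0079 to 0.089 for Cxcr4 and from 0.019 to 0.24 for S1pr1.

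S1pr4 and Ccr9 also had no overlap between null and WT cells with peptide. Of the 7 genes 4 had no overlap, beside 20.4% of all probe sets, and in all 4 the null values were the higher ones, beside 9.42%. S1pr4 averaged 9.188 ± 0.224 in null and 8.654 ± 0.173 in WT cells (0.53, SE 0.161, limma adjusted p = 0.14). The Ccr9 means were 9.662 ± 0.292 in null and 8.729 ± 0.288 in WT cells (0.93, SE 0.384, limma adjusted p = 0.27), and its 2 other probe sets above the array medians differed by 1.03 and 0.92 without a call. When null mouse 2 was left out, both genes were called (S1pr4 0.66, adjusted p = 0.019; Ccr9 1.08, adjusted p = 0.046), which made 4 called members, while 1150 probe sets in place of 531 were called on the whole array. Differences of Ccr7 (-0.08, interval -0.34 to 0.17) and Cd69 (0.04, interval -0.38 to 0.45) were small, and the Cxcr3 difference of -0.13 had an interval from -0.78 to 0.52.

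**Figure D3:**
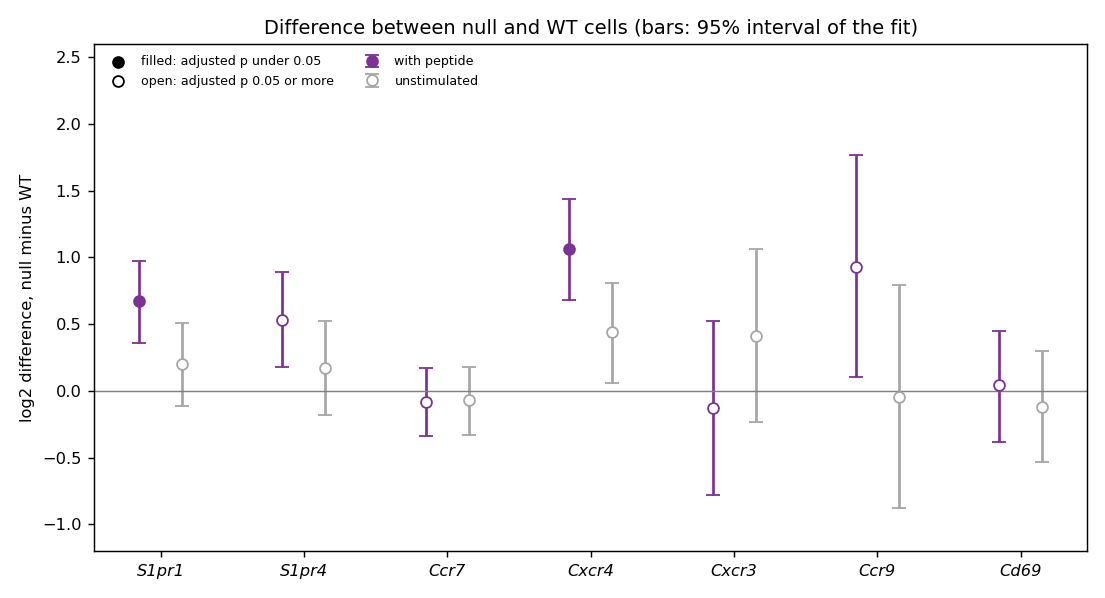
Log2 difference between null and WT cells (vertical axis) for each receptor gene, with peptide (purple) and unstimulated (grey). Whiskers are 95% intervals of the fit and filled points have an adjusted p under 0.05; the filled ones are S1pr1 at 0.67 and Cxcr4 at 1.06, both with peptide.

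Whether peptide acted differently in the genotypes was tested by the difference of the peptide effects, null minus WT, which uses the same 12 arrays as the comparisons above. No receptor gene was called (smallest adjusted p 0.65, with 2 genes, Cxcr4 and S1pr1, at an unadjusted p under 0.05), and 0.00222% of probe sets were (1, or 43 with the mouse as a block). Of all 45037 probe sets, 3209 had an unadjusted p under 0.05 for this difference. For Cxcr4 the drop was smaller in null cells by 0.63 (interval 0.09 to 1.17, adjusted p = 0.65 in limma) and for S1pr1 by 0.46 (0.03 to 0.9, adjusted p = 0.68). The interval was -0.37 to 0.35 for Ccr7 and -0.43 to 0.74 for Cd69. For Ccr9 the estimate was 0.98, from -0.2 to 2.16, and for Cxcr3 it was -0.54, from -1.45 to 0.37.

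B cell markers differed between the genotypes as well. With peptide, 3 of the 9 measured markers were called higher in null cells and 0 lower, beside 0.799% of all probe sets called higher. The 3 were the immunoglobulin heavy chain gene Ighm (1.45), Fcrla (1.25) and the B cell receptor chain gene Cd79b (1.19). Each of these 3 calls was lost without null mouse 1 and without WT mouse 3, and that of Ighm also without null mouse 3, WT mouse 1 or WT mouse 2 (largest adjusted p over the alternatives 0.36 for Ighm, 0.082 for Fcrla and 0.089 for Cd79b). All 3 were also lost with the arrays of this comparison alone, and that of Ighm with the mean of all its probe sets. Without peptide limma called 0, with all 9 at an unadjusted p under 0.05, and the median difference of the list was 0.66. On the whole array 4014 of 45037 probe sets were under 0.05 without peptide. Peptide lowered 5 of the 9 in null cells and 7 in WT cells, beside 13.8% of all probe sets in null and 16.2% in WT cells. The list median was -0.67 in null and -0.73 in WT cells. The count in WT cells was 3 without WT mouse 1, 3 without WT mouse 2 and 2 without WT mouse 3. That in null cells was 2 without null mouse 1, 8 without null mouse 2, 3 without null mouse 3 or any one of the WT mice, and 9 with the mouse as a block. The mean B cell level per array was 8.853, 9.506 and 8.799 in null cells with peptide, 8.165, 8.4 and 8.196 in WT cells with peptide, 9.528, 10.18 and 9.487 in unstimulated null cells, and 8.995, 9.065 and 8.986 in unstimulated WT cells. Cxcr4 was highest on the array with the highest B cell level (null mouse 2, unstimulated) and lowest on the array with the lowest (WT mouse 1 with peptide). S1pr1 was likewise lowest of the 12 arrays on WT mouse 1 with peptide (7.649), but null mouse 2 had the lowest S1pr1 signal of the null mice in both conditions. The arrays with the highest and the lowest B cell level differ in both genotype and peptide. Within each null group, mouse 2 had the highest Cxcr4 signal and the highest B cell level. Among unstimulated WT mice, mouse 2 had the highest B cell level (9.065) and the lowest Cxcr4 signal (10.25). Among WT mice with peptide, Cxcr4 was highest in mouse 3 (8.945), whereas the B cell level was highest in mouse 2 (8.4). The part of the B cell level in the Cxcr4 and S1pr1 differences was not tested.

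**Figure D4:**
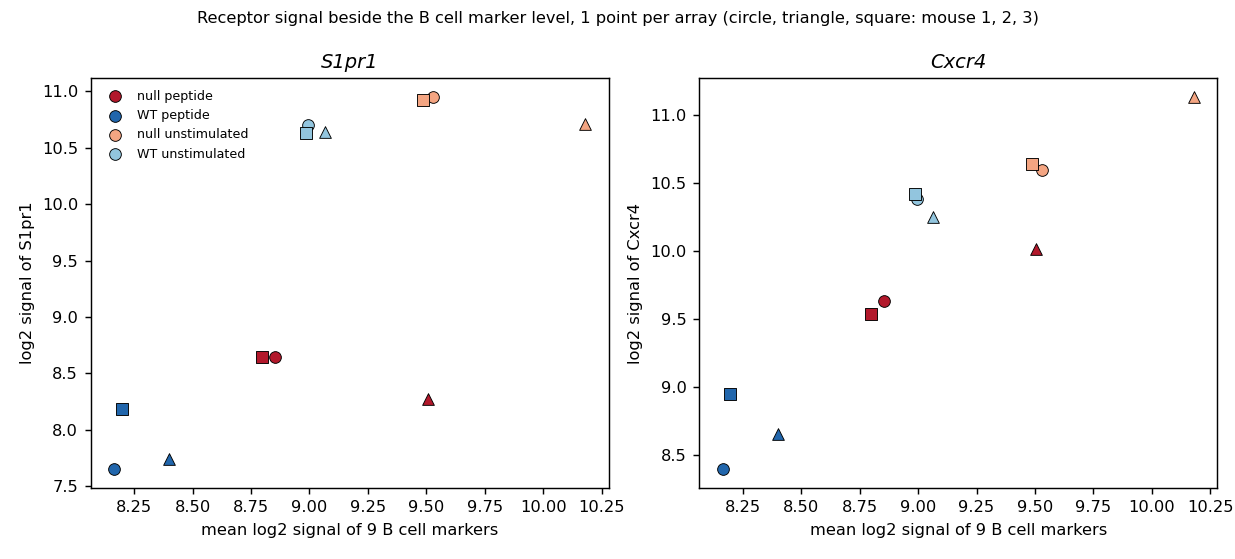
Log2 signal of S1pr1 and Cxcr4 (vertical axes) against the mean log2 signal of 9 B cell markers (horizontal axis), 1 point per array, coloured by group and shaped by mouse. Null arrays lie to the right of WT arrays of the same condition; the highest Cxcr4 signal, 11.13, is on the array with the highest B cell level, 10.18, and S1pr1 on that array is 10.71, the lowest of the unstimulated null arrays.

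T cell and CD8 marker levels overlapped between null and WT cells in both conditions. The mean of 4 T cell markers was 10.02 to 10.52 in null cells with peptide, 10.1 to 10.21 in WT cells with peptide, 10.14 to 10.46 in unstimulated null cells and 10.32 to 10.42 in unstimulated WT cells. With peptide the overlap came from null mouse 2 (10.02), as null mice 1 and 3 had 10.44 and 10.52. Of the 4, Trat1, an adaptor of the T cell receptor complex, was called lower in null than in WT cells with peptide (-0.70), whereas Cd3d, Cd3e and Cd3g differed by 0.39, 0.29 and 0.75 without a call (adjusted p = 0.21, 0.29 and 0.14 in limma). The CD8 marker mean was 10.49 to 10.86 in null cells with peptide and 10.34 to 10.7 in WT cells with peptide, against 10.71 to 11.42 in unstimulated null cells and 11.27 to 11.5 in unstimulated WT cells. Here too the overlap with peptide came from null mouse 2 (10.49), as null mice 1 and 3 had 10.86 and 10.78. The CD4 markers had group means between 5.231 and 5.556, and the stromal markers between 4.649 and 4.882.

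The means of 4 plasma cell markers were higher in null cells, at 8.889 to 9.698 in null cells with peptide against 8.26 to 8.877 in WT cells with peptide, and at 9.636 to 10.4 in unstimulated null cells against 8.985 to 9.395 in unstimulated WT cells. Among them Sdc1, which encodes the plasma cell surface protein syndecan-1, was called higher in null cells with peptide (1.26). The mean of 3 NK cell markers was lower in null cells, at 7.522 to 7.777 against 7.854 to 8.037 in WT cells with peptide and at 7.319 to 7.555 against 7.65 to 7.937 in unstimulated WT cells, and 1 gene carried this gap. Klrd1, an NK receptor gene that CD8 T cells also use, was called lower with peptide (-0.92), while Ncr1 and Nkg7 differed by 0.19 and -0.11 without a call. Erythroid marker means were 3.959 to 4.222 in null and 4.688 to 5.483 in WT cells with peptide, and 3.941 to 4.301 in null and 4.633 to 5.783 in WT cells without it. Here 1 gene, Alas2, which encodes the erythroid enzyme of heme synthesis, carried the gap (-2.43 with peptide and -2.82 without it, neither called), and the other 2, Hba-a1 and Slc4a1, had means of 3.476 and 4.076, below the array medians. Myeloid and dendritic markers overlapped, at 6.649 to 7.149 in null and 6.801 to 6.83 in WT cells with peptide, and at 6.973 to 7.455 in null and 6.732 to 7.016 in WT cells without it. The part of these cells in the genotype differences was not tested.

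Transcription factors known to act on the receptor genes moved with peptide in both genotypes, 1 of 7 up and 4 down. This stood beside 24.8% of all probe sets called in null and 29% in WT cells. The median of the list was -0.91 in null and -1.05 in WT cells. Klf2, which drives S1pr1, fell in null cells (-2.32, SE 0.188, adjusted p = 1.7e-06) and in WT cells (-2.37, SE 0.188, adjusted p = 8.4e-07). The related repressor gene Klf3 fell as well (-2.51 in null and -2.82 in WT cells). Foxo1, an activator of Klf2 and Ccr7, fell (-0.97 in null and -1.05 in WT cells), and so did Foxo3 (-0.91 in null and -1.37 in WT cells). Tbx21, which encodes the Cxcr3 activator T-bet, rose by 5.23 in null and 5.67 in WT cells (SE 0.393, adjusted p = 9.3e-07 in null and 2.7e-07 in WT cells). Prdm1 and Eomes were not called, but the count that rose was 2 in each genotype with the mouse as a block or without null mouse 2. Between genotypes limma called 0 of the 7, with 1 at an unadjusted p under 0.05 in each condition. Of all 45037 probe sets, 4014 were under 0.05 in unstimulated cells and 7034 with peptide. Klf2 averaged 10.53 in null and 10.32 in WT cells with peptide.

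Ligands of the receptors were measured for 5 of 7 genes, and 2 rose in both genotypes, beside 11% of all probe sets in null and 12.8% in WT cells. Cxcl10, a ligand of CXCR3, rose 14.5-fold in null cells (3.86, SE 0.518, adjusted p = 0.0001) and 31.8-fold in WT cells (4.99, SE 0.518, adjusted p = 8e-06). Cxcl9, another CXCR3 ligand, rose 4.29-fold in null and 6.71-fold in WT cells. With peptide Cxcl10 averaged 9.968 in null and 11.53 in WT cells, a difference of -1.56 without overlap that was not called (adjusted p = 0.18), and Cxcl9 differed by -0.92 (adjusted p = 0.38).

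Of 9 genes of S1P synthesis, export and breakdown, 3 fell in null cells, and 3 fell and 2 rose in WT cells. Medians were -0.39 in null and -0.21 in WT cells. On the whole array 24.8% of probe sets were called in null and 29% in WT cells. Without null mouse 3 the count that fell in null cells was 1, and the count that rose in WT cells was 1 on leaving out any one mouse other than null mouse 1. Sphk2, which encodes a sphingosine kinase that makes S1P, fell (-0.51 in null and -0.54 in WT cells), and so did Sgpl1, which encodes S1P lyase (-0.39 in null and -0.52 in WT cells). Sphk1, the other sphingosine kinase gene, changed by -0.13 in null cells without a call (adjusted p = 0.69) and rose by 0.69 in WT cells, to a mean of 4.823 that is near the array medians. The Sphk1 call was lost without WT mouse 1 (largest adjusted p 0.12). For Sphk1 the difference of the peptide effects was not called (adjusted p = 0.54 in limma). The S1P transporter gene Spns2 was 0.76 higher in unstimulated null than WT cells without a call (adjusted p = 0.43).

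Of 16 other chemokine receptors measured, 2 rose and 1 fell in null cells, and 3 rose and 2 fell in WT cells. Medians were 0.01 in null and 0 in WT cells. Such counts are near the shares of all probe sets called, 24.8% in null and 29% in WT cells. These counts moved with single mice: in WT cells 1 rose without WT mouse 2 or 3, and 1 fell on leaving out any one of the WT mice. In null cells 1 rose without null mouse 1 or 3 or WT mouse 2 or 3, while 2 fell without null mouse 2 or WT mouse 2 and 4 with the mouse as a block. Cxcr6, a receptor of effector T cells, rose by 1.33 in null and 1.02 in WT cells, and Ccr2, a receptor of inflammatory chemokines, fell (-0.86 in null and -0.85 in WT cells). Cxcr5, which guides cells into B cell follicles, changed by 0.17 in null cells without a call (adjusted p = 0.75) and rose by 0.92 in WT cells. Ccr6, a receptor that B cells also carry, changed by -0.64 in null cells without a call (adjusted p = 0.14) and fell in WT cells (-0.87). The Cxcr5 and Ccr6 calls were each lost when WT mouse 1, 2 or 3 was left out (largest adjusted p 0.12 and 0.16). Of 12 other lipid and small-molecule receptors, 3 rose and 3 fell in null cells, and 4 rose and 3 fell in WT cells. This stood beside 24.8% of all probe sets called in null and 29% in WT cells. The prostaglandin E2 receptor gene Ptger2 rose by 1.43 in null and 1.99 in WT cells and Gpr174, a lysophosphatidylserine receptor gene, by 1.63 in null and 1.59 in WT cells. Lpar6 fell (-1.40 in null and -1.83 in WT cells), and so did P2ry10 (-1.03 in null and -1.43 in WT cells). Between genotypes limma called 0 of these receptors in either condition, and 0 for the difference of the peptide effects. That difference, null minus WT, was -0.74 for Cxcr5 (adjusted p = 0.75). At an unadjusted p under 0.05 there were 2 chemokine and 3 other receptors in unstimulated cells, and 4 chemokine and 0 other receptors with peptide. Of all 45037 probe sets, 4014 were under 0.05 in unstimulated cells and 7034 with peptide.

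Adhesion partners in homing changed in most of their 7 measured genes, with 2 up and 4 down in each genotype. On the whole array 24.8% of probe sets were called in null and 29% in WT cells. Selplg, the P-selectin ligand, fell (-1.90 in null and -1.71 in WT cells). The integrin chain genes Itgb7 and Itga4, whose products pair in gut homing, fell too, Itgb7 by a change of -1.71 in null and -1.63 in WT cells and Itga4 by -1.48 in null and -1.86 in WT cells. Itgb2 rose by 1.38 in null and 1.43 in WT cells, and Cd44, a receptor of hyaluronan, by 0.60 in null and 1.49 in WT cells. The Cd44 call in null cells was lost without null mouse 1 or 3 and without WT mouse 1 or 3 (largest adjusted p 0.16). It was also lost after quantile normalization and with the arrays of that comparison alone. For Cd44 the difference of the peptide effects, null minus WT, was -0.89 and was not called (adjusted p = 0.55 in limma). Between genotypes, both chains of the integrin LFA-1 were higher in null than in WT cells with peptide: Itgal averaged 10.43 in null and 9.782 in WT cells (0.65, SE 0.125, adjusted p = 0.033) and Itgb2 12.0 in null and 11.49 in WT cells (0.51, SE 0.0995, adjusted p = 0.035). Without peptide Itgb2 differed by 0.56 (10.62 in null and 10.06 in WT cells, no overlap, adjusted p = 0.07) and Itgal by 0.17 (adjusted p = 0.76). Each of the 2 calls held in 6 of 12 alternatives. Both were lost without null mouse 1, null mouse 3, WT mouse 2 or WT mouse 3, and that of Itgb2 also without WT mouse 1 (largest adjusted p 0.19 for each). Both were also lost with the arrays of this comparison alone, and that of Itgal with the mean of all its probe sets.

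Signalling, desensitisation and motility genes of these receptors mostly fell: 13 of 19 fell in each genotype, while 2 rose in null and 3 in WT cells. Of all probe sets, 13.8% fell in null and 16.2% in WT cells. Medians of the list were -0.60 in null and -0.68 in WT cells. The beta-arrestin genes Arrb1 and Arrb2, which uncouple activated receptors, fell, Arrb1 by a change of -1.32 in null and -1.79 in WT cells and Arrb2 by -1.30 in null and -1.67 in WT cells. Rac2, a GTPase of cell movement, fell likewise (-1.26 in null and -1.68 in WT cells). Rgs16, which shortens G protein signals, rose by 3.41 in null and 3.59 in WT cells (SE 0.145, adjusted p = 1.5e-08 in null and 3.9e-09 in WT cells). Between genotypes with peptide, 3 of the 19 were called, all higher in null cells, beside 0.799% of all probe sets called higher. They were the receptor kinase gene Grk6 (10.66 in null and 9.99 in WT cells, adjusted p = 0.027), Rac2 (10.71 in null and 10.15 in WT cells, adjusted p = 0.013) and Coro1a, an actin regulator (12.89 in null and 12.44 in WT cells, adjusted p = 0.04). These calls held in 7 of 12 alternatives for Grk6 and Rac2 and in 6 for Coro1a. All 3 were lost without null mouse 1, null mouse 3 or WT mouse 3, and those of Grk6 and Coro1a also without WT mouse 1 or 2, while 6 genes were called higher without null mouse 2 (largest adjusted p 0.15 for Grk6, 0.32 for Rac2 and 0.2 for Coro1a). The Rac2 and Coro1a calls were also lost with the arrays of this comparison alone, and that of Rac2 with the mean of all its probe sets.

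**Figure D5:**
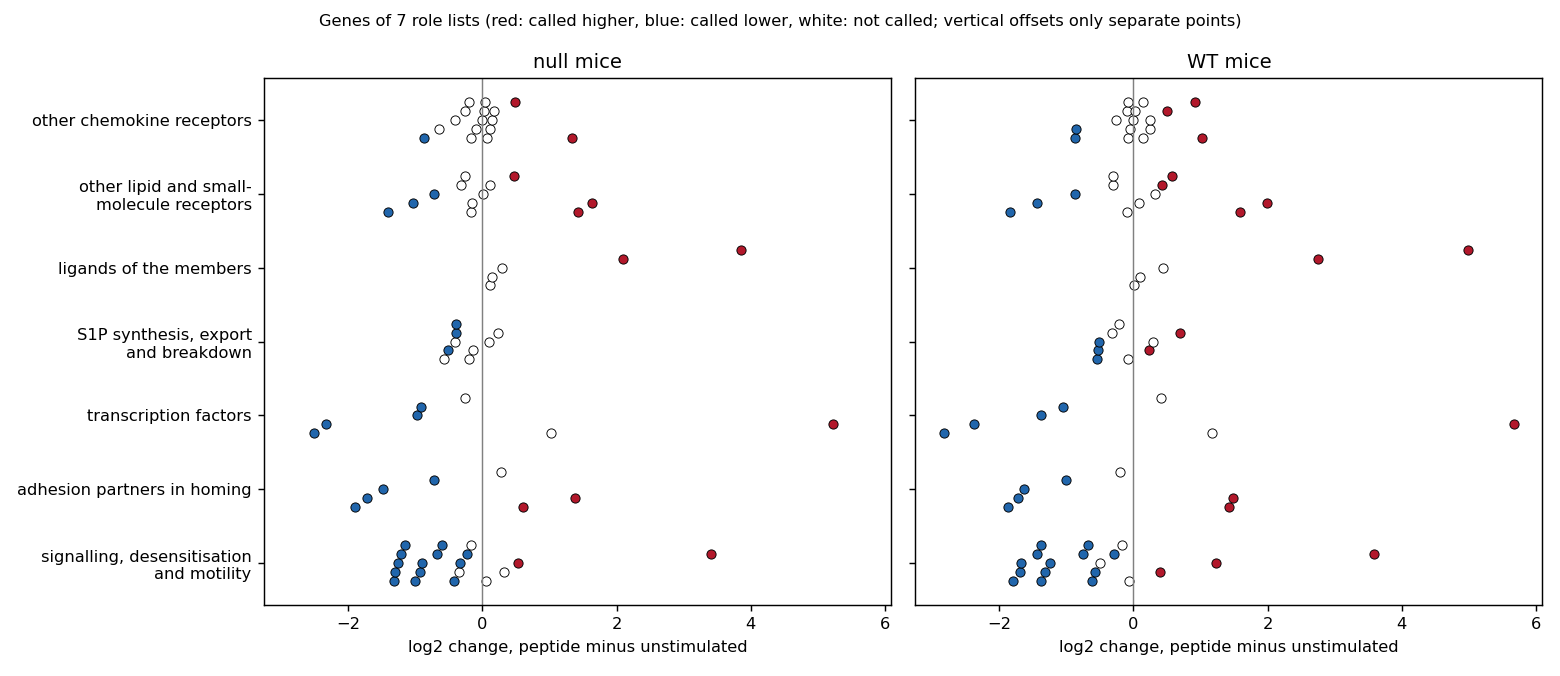
Log2 change with peptide (horizontal axis) of each measured gene of 7 lists of related genes (rows), in null mice on the left and WT mice on the right; 1 point per gene, red called higher, blue called lower and white not called. The highest point of the transcription factor row is Tbx21, at 5.23 in null and 5.67 in WT mice.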

How the data were processed

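Total RNA of 12 lymph node cultures was measured on Affymetrix arrays. The authors deposited log2 values, made with Affymetrix Expression Console 1.1 per the submitters' processing notes; no normalization method is named in the sources used here. They span 2.427 to 15.07 and were used as deposited. Arrays of a group correlated at 0.991 or more. The number of arrays, 3 per group, limits the precision. Probe sets were named through the platform annotation: 34945 had 1 symbol and 932 several, which were not used; 64 control probe sets were left out.

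The 4 group means entered a limma 3.58.1 fit (R 4.3.3, 8 residual and 4.18 prior degrees of freedom) with 5 two-sided comparisons adjusted over 45037 probe sets. The fit was tested on simulated data. For each listed gene, the probe set of highest mean signal was used. Ccl19, Ccl21a, Grk2, Lck and Klrb1c had no probe set of their own and were not analysed here, and some other listed genes are not reported here. Up to 4 called genes of each list and comparison were eligible to be named, or 2 where 0 were called, and the 2 genes nearest to each member called in both peptide comparisons were named. Markers and genes singled out otherwise were chosen after their values were seen. The members and lists were chosen with earlier results of these data known.

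Replicate numbers mark the same mouse in both conditions, per the labels. Deviations from the group means correlated at 0.116 to 0.577 within a mouse and at most at 0.129 with another mouse of that genotype, so fits with the mouse as a block stand beside the results they change. Other alternatives were quantile normalization, a filter at the median signal (4.71), an intensity trend, each comparison's arrays alone, the mean of all probe sets of a gene, and leaving out each mouse.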

Additional observations from a re-analysis of the deposited data

Results flagged for a closer look

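In 3 of 86 probe sets of the receptor genes and their related lists, every null mouse changed one way with peptide and every WT mouse the other way. The difference of the effects was tested in limma for each and not called. How many of all probe sets share this trait was not computed, so the count is no result about these genes. Ccr9 probe set 1421920_a_at changed by 0.12 to 1.52 in null mice and by -0.52 to -0.24 in WT mice, a difference of 1.09 (SE 0.516, adjusted p = 0.71). The main Ccr9 probe set 1427419_x_at lacked this trait, with a change of -0.11 in null mouse 3. Gpr183, the oxysterol receptor that positions lymphocytes in the node, changed by -0.45 to -0.25 in null mice and by 0.27 to 0.59 in WT mice, a difference of -0.75 (SE 0.159, adjusted p = 0.41). Sphk1 changed by -0.3 to -0.03 in null mice and by 0.21 to 1.18 in WT mice, a difference of -0.83 (SE 0.247, adjusted p = 0.54), at a mean signal of 4.35 that lies below the array medians.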

How the results depend on the processing

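Of 413 member values recomputed under other settings, 382 kept their direction and their side of the threshold, and the values and counts that did not are given here or beside the result; the causes were not tested. S1pr1, S1pr4, Ccr7, Cxcr4 and Cd69 were called with peptide in both genotypes under each of the 12 alternatives, and 0 members were called between unstimulated genotypes or for the difference of the effects under any. Members called between genotypes with peptide numbered 1 after quantile normalization, 0 with those arrays alone, and 0 to 4 on leaving out a mouse. Cxcr4 was called in 8 of 12 alternatives and S1pr1 in 6. The mouse as a block changed no other member call than that of Cxcr3 in null cells, and the count for the difference from 1 to 43 probe sets. Signs of the members turned only in uncalled values. The Ccr7 difference of the effects was 0.02 after quantile normalization and -0.11 to 0.05 on leaving out a mouse. On leaving out a mouse, unstimulated null minus WT ran from -0.53 to 0.5 for Ccr9 and from -0.37 to 0.04 for Cd69. With peptide it ran from -0.22 to 0.01 for Ccr7, from -0.49 to 0.08 for Cxcr3 and from -0.02 to 0.08 for Cd69, and the Cd69 difference of the effects from -0.01 to 0.42. With the mean of all probe sets of a gene, 5733 of 18193 genes were called with peptide in null and 6468 in WT cells. Between genotypes 32 were called in unstimulated cells, 326 with peptide and 4 for the difference. With the probe set of highest mean, the main fit called 2 genes higher and 6 lower between unstimulated genotypes. With peptide these were 199 and 99. Probe sets called between unstimulated genotypes numbered 44 with the mouse as a random block, 32 after quantile normalization, 52 with a trend, 3 with those arrays alone and 3 to 64 without a mouse. With peptide they numbered 91 with those arrays alone and 69 to 1150 without a mouse, and for the difference 0 above the median signal, 3 with a trend and 0 to 11 without a mouse. The same alternatives were run, as a choice made after seeing the data, for the genes of the related lists and B cell markers that were called: 34 of 45 kept their call under each alternative in null cells with peptide and 40 of 53 in WT cells, but 0 of 8 between genotypes with peptide. Gnai3, called lower in null cells with peptide, turned to 0.1 (adjusted p = 0.58) with the mean of its probe sets.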
